A study of Sus scrofa with 6 samples.

Results

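The mitochondrial chromosome of the pig (Sus scrofa) carries 37 genes, which RefSeq places on Sscrofa11.1 as 13 protein-coding genes, 2 rRNA genes and 22 tRNA genes. Its rows in the count table were taken as the unbroken run of 37 Ensembl identifiers that holds ND1, COX1 and CYTB, out of 35670 identifiers in all. The reference tables name the 13 protein genes among them. The other 24 identifiers are paired with no name or class in the tables used here, so they are reported as unnamed identifiers, and no rRNA or tRNA is assigned to any of them. Of the 37 members, 26 had enough reads to be tested, including all 13 protein genes.

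The RNA came from granulosa cells, the somatic cells around the oocyte, drawn from small porcine follicles and cultured in serum-containing medium. The control group (n = 3) stayed at 37 °C and the heat group (n = 3) was moved to 42 °C, both for 6 h, with no other agent or genotype differing by the labels. The cells were a primary culture and not a clonal line, and the labels call the libraries biological replicates without saying whether animals or flasks were separate, so the p-values measure only the spread between these libraries.

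Mitochondrial DNA is read from both strands into long precursor RNAs. The tRNAs that lie between most of the other genes are cut out, which releases the individual mRNAs and rRNAs, and the mRNAs are then stabilised, mostly polyadenylated and translated inside the organelle. The 13 proteins are core subunits of respiratory complexes I, III and IV and of the ATP synthase, complex V. Every protein gene except ND6 is encoded in the same direction, and ND6 is read from the opposite strand. Steroid-producing cells of the ovary also rely on mitochondria because the first step of steroid synthesis takes place there.

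Library totals lay between 18711440 and 29606378 counts. Control 2 and control 3 were nearly alike (Pearson r = 0.990 across tested genes, log2 CPM), as were heat 1 and heat 2 (r = 0.991), whereas control 1 correlated most with heat 3 (r = 0.920). These correlations across genes are descriptions. The summed stromal markers (7 of 8 matched) stood at 59118 CPM in control 1, at 7421 and 6698 CPM in the other controls, and between 28082 and 87925 in heat. The leukocyte markers (7 of 7 matched) summed to 3.34 CPM in control 1, to 34.1 and 68.6 CPM in control 2 and 3, and between 1.31 and 4.39 in heat. Of the granulosa cell markers, CDH2 reached 850 CPM, INHBA 387, GATA4 82.1, CYP11A1 69.6, FST 54.4, NR5A2 14.3 and INHBB 10.2 CPM. By contrast, FSHR had at most 49 reads in a library, INHA and AMHR2 at most 7 and AMH at most 6. Of the theca markers, CYP17A1 and LHCGR had at most 4 and 6 reads and INSL3 had 0, while STAR reached 21 reads and NR5A1 reached 269. The part of these differences in the results that follow was not tested.

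Mitochondrial RNA took a smaller part of every heat library than of any control library. All 37 members together took 26.3, 25.3 and 24.8% of the counts in control 1, 2 and 3, against 9.38, 8.99 and 5.71% in heat 1, 2 and 3. The controls were close to each other in this sum, with a mean of 25.5 ± 0.742% against 8.02 ± 2.01% in heat (SD, n = 3). What made up the sum differed between the controls. The 13 protein genes took 25.3% in control 1 but 14.3 and 12.4% in control 2 and 3, against 7.94, 7.49 and 5.04% in heat. The identifier ENSSSCG00000018063 alone took 0.910% in control 1, 10.8 and 12.4% in control 2 and 3, against 1.01, 1.10 and 0.564% in heat. The share of the protein genes differed by -10.5 percentage points, heat minus control (two-sided exact permutation test, p = 0.10; 0.133 adjusted over 4 comparisons). That p is the smallest that 3 against 3 libraries can give. The 95% Wilson intervals of these shares reach no more than 0.0199 percentage points to either side and cover counting error only. In bulk RNA, fewer mitochondria per cell, less RNA per mitochondrion and a change in cell types cannot be told apart.

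**Figure D1:**
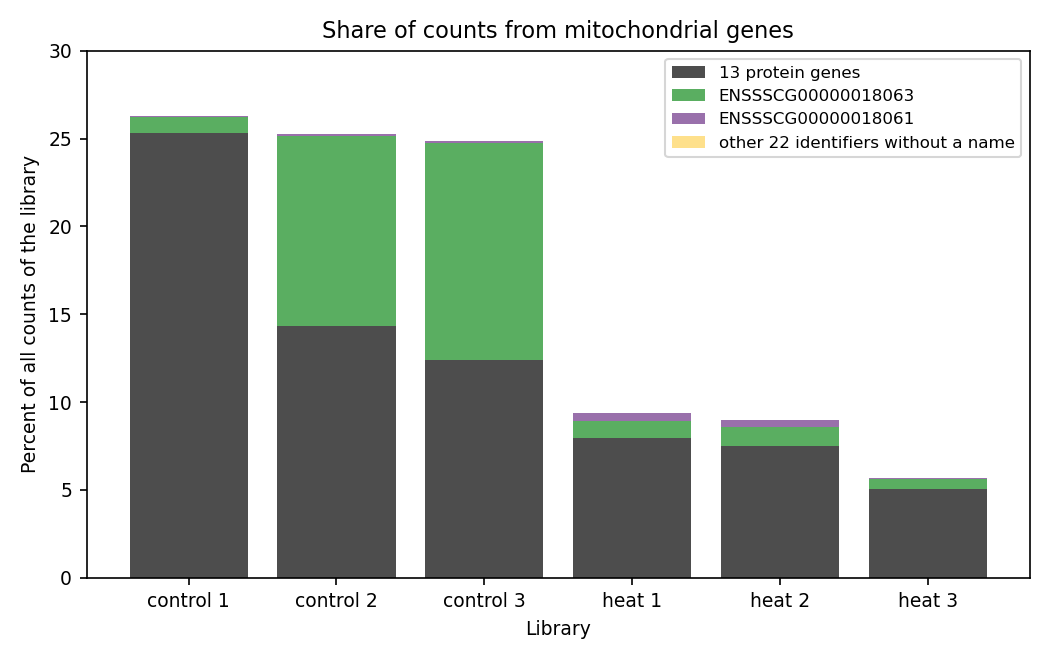
Percent of all counts of each library that came from mitochondrial genes, stacked by class, for 3 control and 3 heat libraries. The control bars reach 24.8 to 26.3% and the heat bars 5.71 to 9.38%, while the green part (ENSSSCG00000018063) is large in control 2 and 3 and at most 1.10% elsewhere.

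Levels below are CPM, read counts brought to a common library size with TMM factors, which hold most genes level between libraries. Of the 13 protein genes, 7 fell in heat, none rose and 6 did not pass the test (edgeR quasi-likelihood, Benjamini-Hochberg adjusted p below 0.05 over 14242 genes). Over all genes tested, the same rule called 4.32% lower and 6.71% higher (615 and 956 genes, against 416 and 1583 when only library totals were used for scaling). At an unadjusted p below 0.05, 11 of the 13 were lower, as were 14.4% of all genes. The median log2 fold change, heat minus control, was -2.43 for the 13 genes and 0.05 for all genes tested. In 12 of 13 genes every heat library lay below every control, as did 16.8% of all genes tested. These counts rest on few libraries. Without control 1 the test called 9 of the 13 lower (12.3% of all genes), without heat 3 it called 4 (17.7%), and without both it called 12 (38.4%). In each of the 4 fits that left out another library (control 2, control 3, heat 1, heat 2), none of the 13 and 0.00% of all genes were called lower, with edgeR adjusted p-values between 0.133 and 0.549 and every log2 fold change of the 13 below 0. In those 4 fits, 22 to 24 of the 26 to 29 members tested, unnamed identifiers included, were lower at an unadjusted p below 0.05. The share of all genes at that cutoff was not computed for them, so that count has no baseline. Some of the unnamed identifiers have few reads and can pass the filter through the group where they are high. With all libraries DESeq2 called 12 of the 13 lower (12.6% of all genes) and limma-voom 8 (4.39%).

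**Figure D2:**
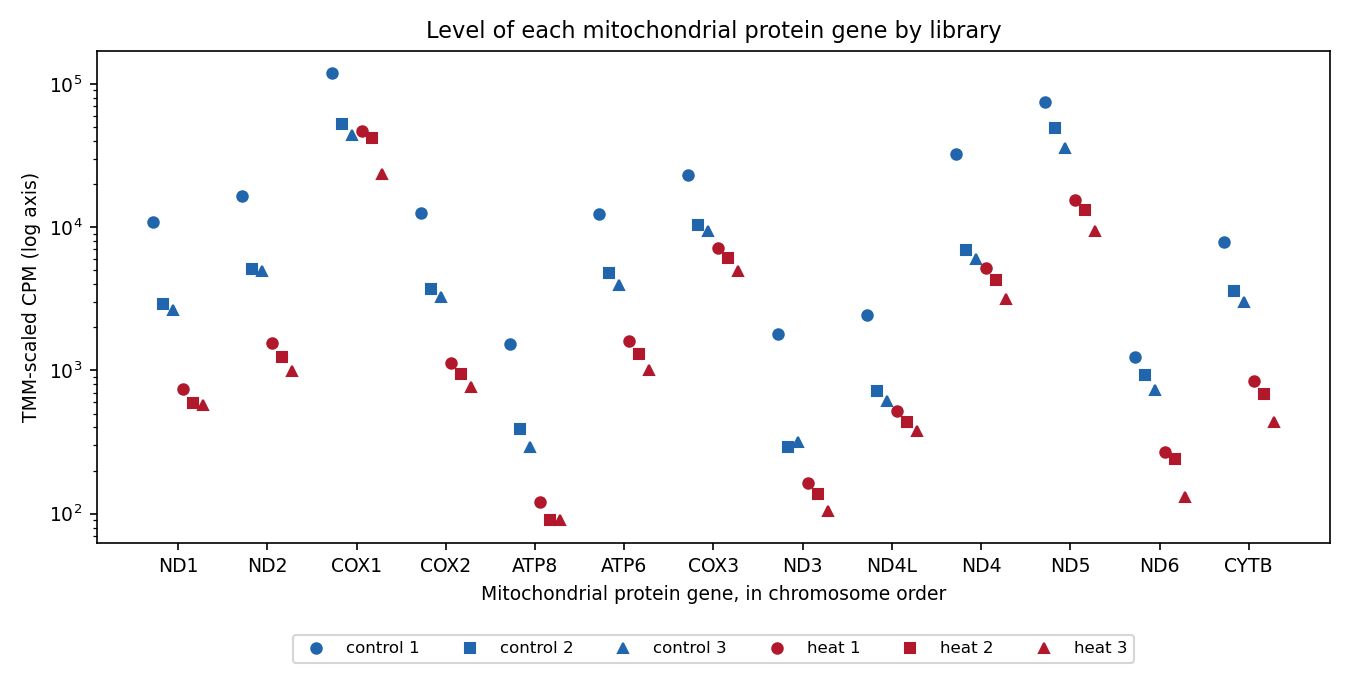
TMM-scaled CPM (log axis) of the 13 mitochondrial protein genes in chromosome order, 1 point per library, blue for control and red for heat. Control 1 is the highest library for each gene, and COX1 is the gene where the groups overlap.

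Complex I takes electrons from NADH, and 7 of its subunits are mitochondrial. ND1 (chromosome MT, 3922 to 4876), part of the membrane arm next to the quinone site, was at 10934, 2902 and 2635 CPM in control 1, 2 and 3, against 739, 591 and 574 CPM in heat 1, 2 and 3. The lowest control was thus more than 3 times the highest heat library, although control 1 stood far above the other controls. ND1 fell by 3.11 ± 0.69 in log2 units (SE; edgeR, adjusted p = 0.0386), and its log2 fold change without control 1 was -2.15. ND2 (5087 to 6128), a proton-pumping subunit of the membrane arm, was at 16497, 5089 and 4951 CPM in control and 1559.6, 1234 and 994 CPM in heat. The groups did not overlap, and ND2 fell by 2.81 ± 0.66 in log2 units (edgeR, adjusted p = 0.0414), and its log2 fold change without control 1 was -2.01. ND6 (14739 to 15266), the membrane subunit read from the opposite strand, was at 1242, 929.9 and 725 CPM in control and 271, 239 and 130.2 CPM in heat. Its controls were closer together than those of any other protein gene, with the highest 1.71 times the lowest. ND6 fell by 2.18 ± 0.44 on the log2 scale (edgeR adjusted p = 0.0343).

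The other complex I genes did not pass. ND5 (12935 to 14755), the most distal proton-pumping subunit, was at 75303, 48941 and 35619.7 CPM in control and 15568, 13145 and 9361 CPM in heat. Its groups were separate by more than 2 times, and the log2 fold change was -2.07 ± 0.61 (edgeR, adjusted p = 0.0626). ND3 (10653 to 10998), a small subunit at the junction of the arms, was at 1785, 291 and 315 CPM in control and 165, 138 and 104 CPM in heat. Control 1 was 5.89 times the mean of control 2 and 3 for ND3, the widest such gap among the 13 genes (log2 fold change -2.56 ± 0.76, edgeR adjusted p = 0.0649). Without control 1 the log2 fold change of ND3 was -1.19. ND4 (11359 to 12736), another proton-pumping subunit, was at 32175, 6920.4 and 6012 CPM in control and 5148, 4289 and 3173 CPM in heat. ND4L (11069 to 11365), which shares an mRNA with ND4, was at 2439, 722 and 610.0 CPM in control and 519.6, 436 and 377 CPM in heat. For both genes control 2 and 3 lay just above heat 1, and control 1 stood apart. The log2 fold changes were -1.84 ± 0.77 for ND4 and -1.50 ± 0.60 for ND4L, and without control 1 they were -0.64 and -0.61. ND4L and ND4 overlap by 7 bases, and ND5 and ND6 by 17 bases on opposite strands, so the assignment of reads there is uncertain.

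Complex III passes electrons from ubiquinol to cytochrome c, and its mitochondrial subunit is cytochrome b. CYTB (chromosome MT, 15342 to 16481) was at 7886, 3591 and 2983 CPM in control and 845, 689 and 439.5 CPM in heat. The groups were separate by more than 3 times. CYTB fell by 2.87 ± 0.58 in log2 units (edgeR, adjusted p = 0.0339), and its log2 fold change without control 1 was -2.34, the lowest of the 12 genes on its strand in that fit.

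Complex IV, cytochrome c oxidase, reduces oxygen, and 1 of its 3 mitochondrial genes passed the test. COX2 (chromosome MT, 8203 to 8890), which receives electrons from cytochrome c, was at 12451, 3683 and 3227 CPM in control and 1121, 939 and 768 CPM in heat. The groups did not overlap, and COX2 fell by 2.78 ± 0.67 in log2 units (edgeR, adjusted p = 0.0425), and its log2 fold change without control 1 was -1.90. COX1 (6511 to 8055), the catalytic subunit, was at 118839, 52536 and 44116 CPM in control and 46607, 41961 and 23672 CPM in heat. Heat 1 lay above control 3, so the groups overlapped, and the log2 fold change was -0.94 ± 0.68 (edgeR adjusted p = 0.350). COX3 (9800 to 10583), a structural core subunit, was at 23156, 10371 and 9404 CPM in control and 7174, 6056 and 4928 CPM in heat. Its heat libraries all lay below the controls, and the log2 fold change was -1.24 ± 0.57 (edgeR, adjusted p = 0.164). COX1 and COX3 had the values nearest 0 of the 13 genes.

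Complex V makes ATP, and its mitochondrial genes ATP8 and ATP6 share an mRNA. ATP6 (chromosome MT, 9120 to 9800), a part of the proton channel, was at 12389, 4809 and 3929.8 CPM in control and 1614, 1292 and 1007 CPM in heat. ATP8 (8959 to 9162), a short subunit of the stalk, was at 1536, 390.3 and 289.7 CPM in control and 121, 89.7 and 90.7 CPM in heat. Both groups were separate for both genes, with control 1 highest. ATP6 fell by 2.43 ± 0.61 and ATP8 by 2.88 ± 0.68 in log2 units (edgeR, adjusted p = 0.0457 and 0.0421). Without control 1 the log2 fold changes were -1.77 and -1.78. The genes overlap by 43 bases of the 204 of ATP8, so part of the ATP8 reads may belong to ATP6.

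**Figure D3:**
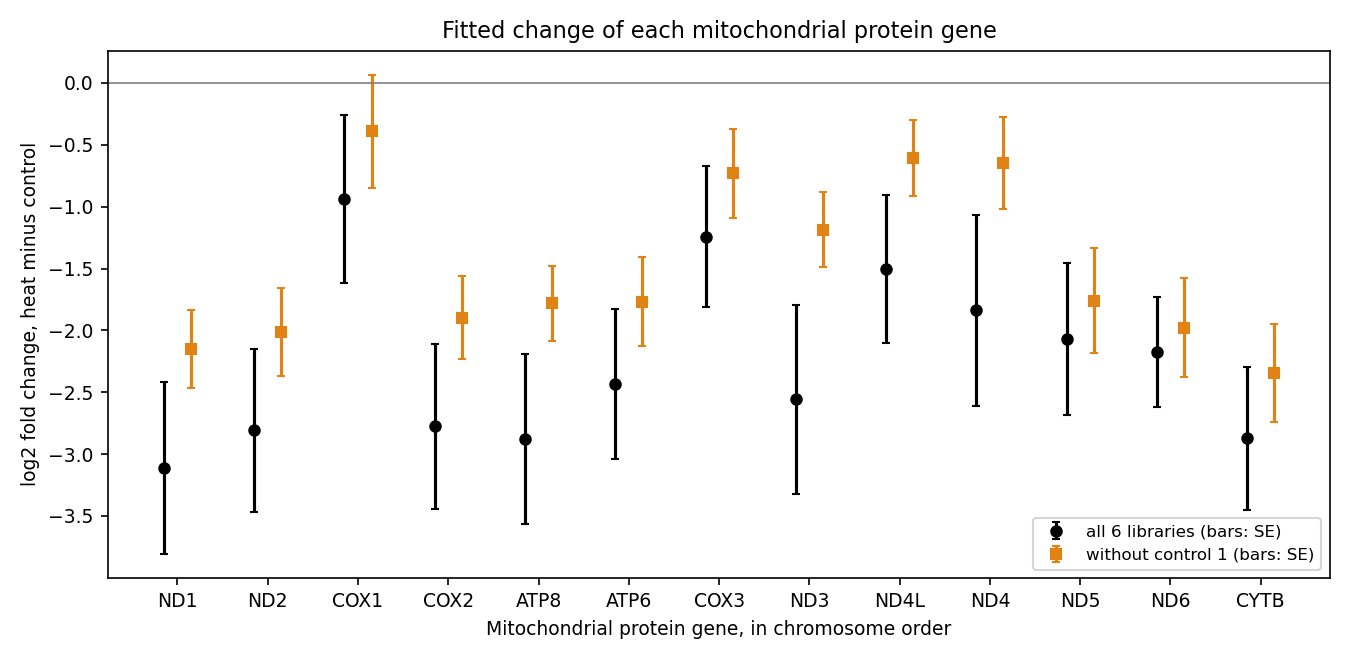
Log2 fold change, heat minus control, of the 13 mitochondrial protein genes in chromosome order with SE bars, fitted with all 6 libraries (black) and without control 1 (orange). All points lie below 0, from -3.11 (ND1) to -0.94 (COX1) with all libraries, and without control 1 from -2.34 (CYTB) to -0.39 (COX1).

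The make-up of the mitochondrial protein reads also differed between the groups, a measure that needs no scaling between libraries. COX1 took 37.5, 37.2 and 38.4% of the reads of the 13 genes in control 1, 2 and 3, against 57.2, 59.0 and 51.9% in heat 1, 2 and 3. CYTB took 2.49, 2.54 and 2.60% in control, against 1.04, 0.969 and 0.963% in heat. For both genes the controls were close together, although control 1 had the highest total of mitochondrial protein reads, and the groups did not overlap. ND1 took 3.45, 2.06 and 2.30% in control, against 0.907, 0.831 and 1.26% in heat, and ND2 took 5.21, 3.60 and 4.31% against 1.91, 1.74 and 2.18%. ND5, the gene with the next largest share, took 23.8, 34.7 and 31.0% in control, against 19.1, 18.5 and 20.5% in heat. COX3 took 7.31, 7.35 and 8.19% in control, against 8.81, 8.52 and 10.8% in heat.

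Of the 13 shares, 8 were lower in every heat library than in every control (ND1, ND2, COX2, ATP8, ATP6, ND5, ND6 and CYTB), 2 were higher (COX1 and COX3) and 3 overlapped (ND3, ND4L and ND4). The shares of 1 library sum to a fixed total, so a higher share of COX1 by itself lowers the others. For each of the 10 genes without overlap the two-sided exact permutation test on the log2 ratio of a gene's reads to those of the other 12 gave p = 0.10, the smallest possible, and 0.13 adjusted over 13 comparisons. The differences, heat minus control, ran from -1.39 for ND1 and CYTB to 1.08 for COX1 on the log2 scale. When edgeR took the total of the 13 genes as the library size, CYTB was the single protein gene called lower (-1.36 ± 0.49, adjusted p = 0.0447) and none was called higher. Under that scaling 0.379% of all genes were called lower and 40.2% higher, and the values of COX1, COX3 and ND4L were above 0 (0.57, 0.30 and 0.20).

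**Figure D4:**
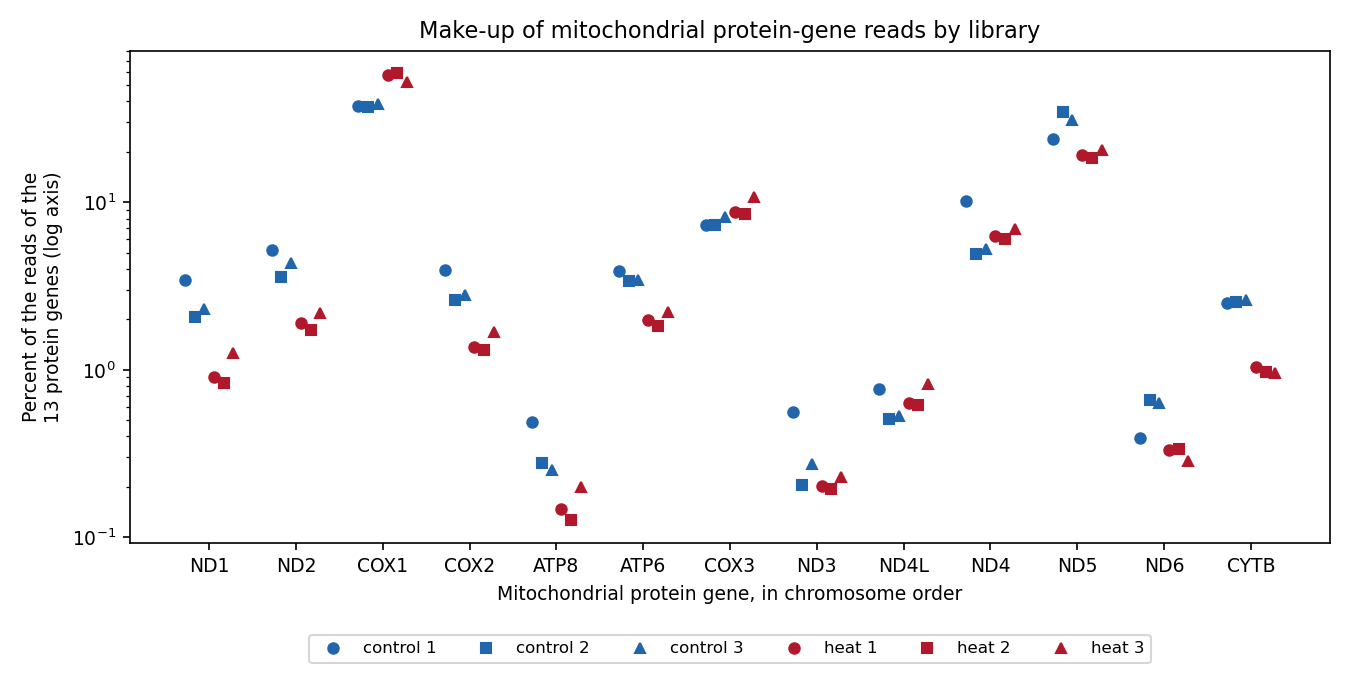
Percent of the reads of the 13 mitochondrial protein genes that each gene took (log axis), in chromosome order, 1 point per library, blue for control and red for heat. COX1 took 37.2 to 38.4% in control, against 51.9 to 59.0% in heat, and CYTB took 2.49 to 2.60% in control, against 0.963 to 1.04% in heat.

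Per length, COX1 had the highest level in each of the 6 libraries. It stood at 46492 ± 26491 CPM per kb in control and 24216 ± 7848 CPM per kb in heat (SD, n = 3). ND5 came next in each control (29263 ± 11090.4 CPM per kb) and COX3 after it (18253 ± 9790.3), and in each heat library COX3 (7720.4 ± 1432) stood above ND5 (6969 ± 1718). ND4L moved from rank 9 or 10 in the controls to rank 6 in each heat library, at 4232 ± 3452 and 1496 ± 241 CPM per kb. ND3 and ND6 were among the lowest in each library, with 2304 ± 2473 and 1828 ± 493 CPM per kb in control and 391 ± 88.0 and 404 ± 140.03 CPM per kb in heat. Every pair of neighbours in the control order had ranges that overlapped between libraries. Within single libraries, COX1, ND5, COX3 and ND4 kept that order in all 3 controls. So did ATP6 over COX2, ND2 over ND1, ND1 over ND4L and ATP8 over ND3, while the other neighbours did not. The heat order held in all 3 heat libraries except between CYTB and ATP8, ATP8 and ND6, and ND6 and ND3. In the heat order the ranges of COX1 and COX3, of ND5 and ND4, and of ND2 and ND1 did not overlap, and those of the other neighbours did.

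Over the 12 protein genes on the strand opposite to ND6, the log2 fold change had a Pearson correlation with the gene's start of 0.13 and a Spearman correlation of 0.27, given as a description across genes that share libraries. ND1 and ND2, which lie first, and CYTB, which lies last, had values between -3.11 and -2.81, and COX1 and COX3, nearest to 0, lie between them on the chromosome. COX2, ATP8 and ATP6 lie between COX1 and COX3 and had values of -2.78, -2.88 and -2.43, so the values did not follow position. ND6 was also set against the sum of the other 12 genes, of which COX1 is the largest part. ND6 had 0.394, 0.663 and 0.635 reads per 100 reads of the other protein genes in control 1, 2 and 3, against 0.334, 0.337 and 0.286 in heat 1, 2 and 3. Control 1 was closer to the heat libraries than to the other controls, and the groups did not overlap. The log2 ratio differed by -0.79, heat minus control (two-sided exact permutation test, p = 0.10; 0.133 adjusted over 4 comparisons). Of those 12 genes, 7 had a lower log2 difference in their own ratio than ND6, so this value does not set ND6 apart from the genes of the other strand.

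Of the 24 unnamed identifiers, 2 reached 10000 reads in a library and are described singly. ENSSSCG00000018063 was at 11382, 106879 and 114593 CPM in control 1, 2 and 3 and at 10362, 10407 and 5101 CPM in heat 1, 2 and 3. Control 2 and 3 were 9.73 times control 1 on average, and control 1 lay just above heat 1 and 2. Its log2 fold change was -3.17 ± 0.95 and did not pass (edgeR adjusted p = 0.0663). It passed in 5 of 18 refits, among them those without control 1 (-3.71) and with DESeq2, and the adjusted p of the refits ran from 3.19e-12 to 0.459. Among the controls it was lowest where the protein genes were highest. Per 100 protein reads it had 3.59, 75.7 and 99.8 reads in control 1, 2 and 3, against 12.7, 14.6 and 11.2 in heat 1, 2 and 3. Control 1 was thus below every heat library and control 2 and 3 above. The summed leukocyte markers were likewise high in control 2 and 3, mostly through LYZ (7, 602 and 1092 reads in control 1, 2 and 3). CD163, PTPRC, AIF1 and CSF1R were also higher there. CD14 (27, 26 and 34 reads in control, 45, 42 and 23 in heat) and CD68 (14, 15 and 35 against 24, 11 and 9) did not follow. The part of these markers in this result was not tested. The log2 ratio differed by -1.24, heat minus control, with an exact permutation p of 0.40 (0.40 adjusted over 4 comparisons), and by -2.77 without control 1, -0.57 without control 2 and -0.37 without control 3. The tables used here give this identifier no name, so whether it is an rRNA gene was not settled by name. The identifiers of the 13 protein genes run in chromosome order, and ENSSSCG00000018061 and ENSSSCG00000018063 come before that of ND1, the first of them. RefSeq gives the 2 rRNA genes of the chromosome lengths of 960 and 1571 bases.

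ENSSSCG00000018061 was at 676, 1017 and 1059 CPM in control 1, 2 and 3 and at 4352, 3765 and 932 CPM in heat 1, 2 and 3. Heat 1 and 2 were high, and heat 3 lay among the controls. Its log2 fold change was 1.72 ± 0.63 and did not pass (edgeR adjusted p = 0.102), which made it the single tested member of the 26 with a value above 0. It passed in 4 of 18 refits, among them those without heat 3 (2.13) and with DESeq2, with adjusted p-values from 3.70e-10 to 0.577. Per 100 protein reads it had 0.214, 0.721 and 0.923 reads in control, against 5.34, 5.30 and 2.04 in heat. In this ratio the groups were separate. The log2 ratio differed by 2.89, heat minus control (two-sided exact permutation test, p = 0.10; 0.133 adjusted over 4 comparisons).

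The other 22 unnamed identifiers had few reads, at most 1508 in a library, and together took between 0.00817 and 0.0123% of the counts in control and between 0.00123 and 0.00176% in heat. One of them had 0 reads in all 6 libraries. RefSeq gives the tRNA genes of the chromosome lengths of 59 to 75 bases. Enough reads for the test were present for 11 of the 22. Identifiers with so few reads can pass the filter through the group where they are high, so no count of calls is read from them. ENSSSCG00000018070 had 21, 263 and 185 reads in control 1, 2 and 3, against 0, 1 and 3 reads in heat 1, 2 and 3. With these included, edgeR called 15 of the 26 tested members lower and 0 higher (4.32% and 6.71% of all genes). Of these 15, 7 were protein genes and 8 were identifiers with few reads. At an unadjusted p below 0.05, 23 members were lower (14.4% of all genes) and 1 was higher. DESeq2 called 23 lower and 1 higher (12.6% and 14.9% of all genes). All of these totals hold identifiers with few reads, so none of them is read as a result against the share of all genes.

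The nuclear genome supplies the machinery that copies, reads and translates the mitochondrial genome and the other subunits of the respiratory complexes. From both kinds, 232 genes in 8 lists were tested. Of these, 6 fell and none rose, which is 2.59% lower against 4.32% of all genes, and the median log2 fold change was -0.39. Without control 1, 40 were called in either direction (31.9% of all genes) and without heat 3, 84 (36.1% of all genes). Leaving out control 2, control 3, heat 1 or heat 2 gave 0 (edgeR, 19 to 21 at an unadjusted p below 0.05). The share of all genes at that unadjusted cutoff was not computed for those fits. PNPT1, a nuclease that degrades mitochondrial RNA, was at 41.1, 64.8 and 54.4 CPM in control and 14.5, 13.4 and 22.03 CPM in heat (log2 fold change -1.68 ± 0.34, edgeR adjusted p = 0.0339). MTPAP, the polymerase that adds poly(A) tails to mitochondrial mRNAs, was at 18.6, 21.9 and 20.9 CPM in control and 8.43, 9.02 and 11.2 CPM in heat (-1.10 ± 0.28, edgeR adjusted p = 0.0461). FASTKD2, an RNA-binding protein needed for the mitochondrial ribosome, was at 21.8, 31.9 and 26.6 CPM in control and 2.09, 2.93 and 10.5 CPM in heat (-2.36 ± 0.61, edgeR adjusted p = 0.0489). These 3 genes belong to a list of RNA processing and decay in which 33 of 36 tested genes did not pass.

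LRPPRC, which binds and stabilises the mRNAs of the heavy-strand transcript, was at 129, 188 and 145 CPM in control and 78.4, 79.6 and 113 CPM in heat. The groups did not overlap, and LRPPRC did not pass (-0.77 ± 0.32, edgeR adjusted p = 0.136). In the list of mitochondrial DNA transcription and replication 1 of 20 fell, MTERF2, a factor that binds mitochondrial DNA, with 8.61, 6.90 and 6.69 CPM in control and 2.84, 2.93 and 2.93 CPM in heat (edgeR adjusted p = 0.0413). TFAM, which packages mitochondrial DNA and starts its transcription, was at 47.5, 86.8 and 71.4 CPM in control and 24.6, 29.01 and 47.1 CPM in heat (-1.03 ± 0.38, edgeR adjusted p = 0.103). POLRMT, the mitochondrial RNA polymerase, was at 8.01, 3.41 and 2.93 CPM in control and 26.1, 29.01 and 5.35 CPM in heat (2.08 ± 0.68, edgeR adjusted p = 0.0795). TFAM was lower in every heat library, though heat 3 was nearly level with control 1, and POLRMT was high in heat 1 and 2 while heat 3 lay within the controls.

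Of 14 translation factors 1 fell, MTIF2, the initiation factor, with 31.6, 39.3 and 43.8 CPM in control and 17.3, 17.6 and 14.97 CPM in heat (-1.20 ± 0.28, edgeR adjusted p = 0.0413). Of 14 regulators of mitochondrial biogenesis 1 fell, the stress-responsive transcription factor NFE2L2 (-1.42 ± 0.32, edgeR adjusted p = 0.0390). None of 68 mitochondrial ribosomal proteins passed in edgeR. At an unadjusted p below 0.05, 9 were lower (14.4% of all genes), and DESeq2 called 7 lower (12.6% of all genes) and limma-voom 0. Its members with the highest means were MRPS10, at 41.7, 58.7 and 57.1 CPM in control and 23.6, 22.6 and 50.4 CPM in heat, and MRPL17, at 28.4, 54.4 and 60.05 CPM in control and 24.8, 24.3 and 48.4 CPM in heat. In both genes heat 3 lay above control 1. None of 20 mitochondrial tRNA synthetases passed in edgeR or limma-voom. At an unadjusted p below 0.05 in edgeR, 1 was lower (14.4% of all genes) and 3 were higher, a direction whose share over all genes was not computed. DESeq2 called 1 lower and 2 higher (12.6% and 14.9% of all genes). RARS2, which charges arginine tRNA, was at 32.3, 33.1 and 29.0 CPM in control and 12.3, 12.7 and 20.5 CPM in heat, and IARS2, which charges isoleucine tRNA, at 27.9, 49.99 and 40.7 against 24.0, 25.3 and 31.7 CPM.

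The nuclear-encoded partners of the same respiratory complexes differed by library more than by group. None of 32 nuclear complex I genes and none of 28 nuclear genes of complexes III, IV and V passed in edgeR, none had an unadjusted p below 0.05, and DESeq2 and limma-voom called 0. The complex I partners summed to 454, 935 and 957 CPM in control 1, 2 and 3 and to 344, 310.3 and 795 CPM in heat 1, 2 and 3. The partners in complexes III, IV and V summed to 799, 1776 and 1877 CPM in control and to 680.03, 655 and 1749 CPM in heat. In both sums control 1 lay below heat 3, while control 1 was the highest library for each of the 13 mitochondrial protein genes. NDUFS1 and NDUFV2 had the highest means among the complex I partners, and ATP5F1A and ATP5F1C among the others. NDUFS1, which carries iron-sulfur clusters, was at 62.8, 97.9 and 82.5 CPM in control and 30.1, 30.8 and 69.8 CPM in heat, and NDUFV2 at 40.9, 85.6 and 92.7 against 29.5, 28.5 and 61.7 CPM. ATP5F1C, the rotor subunit of the ATP synthase head, was at 89.6, 134 and 143 CPM in control and 68.2, 71.4 and 114 CPM in heat. ATP5F1A, a catalytic-head subunit, was at 152, 269.8 and 267 CPM in control and 146, 154 and 358 CPM in heat, so heat 3 was the highest library.

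Nuclear copies of mitochondrial sequence can share reads with these genes, and the counting rule for such reads was not given in the sources used here.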

How the data were processed

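RNA abundance was measured in 3 control and 3 heat libraries. Per the labels' protocols these were stranded mRNA libraries read as pairs, and per the submitters' processing notes FastQC 0.11.4, Trim Galore, STAR and the Sscrofa11.1 build were used, with counting tool and annotation release not given in the sources used here. Values in the deposited table are raw counts of reads for each Ensembl identifier. The authors' normalized table was not used here.

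Names came from the gene name table and coordinates from RefSeq (Sscrofa11.1) by symbol, for 13 of 37 members. Genes were kept by filterByExpr (minimum count 10). Heat was compared with control by edgeR 4.0.16 (R 4.3.3), quasi-likelihood F test, two-sided, TMM factors, robust dispersions and Benjamini-Hochberg adjustment over 14242 genes, called below 0.05. SE is the absolute log2 fold change over the square root of F. The test was checked on simulated counts drawn independently for each library, which do not hold the near-identical pairs seen here. Shares and within-library ratios were compared by exact permutation (scipy 1.17.1). DESeq2 1.42.0 and limma-voom 3.58.1 were alternatives, beside other scalings, filters, thresholds, a replicate block and left-out libraries. The ratios of the unnamed identifiers were added after seeing the data, in place of an rRNA ratio that needs named rRNA genes.

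All members were reported; of each nuclear list, up to 4 called genes by size of change, or, with none called, the 2 of highest mean level, and TFAM, POLRMT and LRPPRC. Members and lists were chosen with earlier results of these data known. Granulosa, theca, stromal, smooth muscle, leukocyte, endothelial, surface epithelium, oocyte and erythrocyte markers were summed per library. Those not given elsewhere summed to between 6727 and 14696 CPM for smooth muscle, 5.26 and 10.8 for endothelial, 3.93 and 109 for surface epithelium, 5.36 and 19.2 for oocyte, 3.00 and 9.14 for theca, 478 and 1360.0 for granulosa and 0 and 0.0496 for erythrocyte markers.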

Additional observations from a re-analysis of the deposited data

How the results depend on the processing

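The 13 mitochondrial protein genes kept a log2 fold change below 0 in 231 of 234 values over the 18 alternatives that refit them. The exceptions were COX1 (0.57), COX3 (0.30) and ND4L (0.20) with the library size set to the mitochondrial protein total, where the median of all genes moved from 0.05 to 1.43. With library totals it moved to 0.17. In the main fit 7 of the 13 protein genes were called lower (4.32% of all genes). With 4 other scalings 7 or 8 were (2.92 to 5.19%), and with limma-voom 8 (4.39%). They numbered 1 with the mitochondrial protein total (0.379% of all genes) and 9 with no filter (3.30%). A filter of 10 CPM in 3 samples gave 5 (5.18%) and DESeq2 gave 12 (12.6%). Members called lower, unnamed identifiers with few reads included, numbered 15 of 26 in the main fit. In the same order of settings they numbered 15 to 17, 16, 6, 23 of 36 tested, 6 of 16 and 23. Such identifiers can pass the filter through the group where they are high, so these member counts are not read as a result. Leaving out control 1 and heat 3 gave 12 protein genes and 27 members (38.4%). Near-identical libraries summed gave 0 of either (21 of 28 tested members were lower at an unadjusted p below 0.05), and an adjusted p below 0.01 gave 0. Leaving out 1 library gave 0 to 9 protein genes and 0 to 22 members. The 4 fits with 0 had 22 to 24 of 26 to 29 tested members lower at an unadjusted p below 0.05 (edgeR, no other tool was run there). The share of all genes at that cutoff was not computed for these 4 fits or for the summed libraries, so these counts have no baseline. Members called higher were 0 of 26 (6.71% of all genes). They numbered 1 with the mitochondrial protein total (40.2%), with DESeq2 (14.9%) and without control 1 and heat 3 (41.2%). Without heat 3 there was 1 (18.4%), and leaving out any other single library gave 0.

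Nuclear genes of the mitochondrial lists called, 6 of 232, numbered 10 with upper-quartile factors (11.4% of all genes called in either direction), 41 with the mitochondrial protein total (40.6%), 11 with no filter (9.54%), 197 without control 1 and heat 3 (79.6%), 0 with near-identical libraries summed (7 at an unadjusted p below 0.05), 33 with DESeq2 (27.5%), 25 at an adjusted p below 0.10 (25.0%), 0 at 0.01, and 0 to 84 on leaving out 1 library. The share of all genes at that unadjusted cutoff was not computed for the summed libraries. The cause of these changes between settings was not tested.

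Same-numbered control and heat libraries correlated at 0.30, -0.23 and 0.22 in their deviations from the group means, so the numbers were not taken as pairs, and control 2 correlated best with heat 3. With the replicate block 21 members were called lower (9.13% of all genes) and 33 nuclear genes were called (23.9% in either direction), ENSSSCG00000018063 passed, and the share of the protein genes differed by -10.5 percentage points (exact p = 0.25, the smallest for 3 pairs). The share difference lay between -12.98 and -6.52 on leaving out 1 library. The planned rRNA ratio was not run. Of the 22 unnamed identifiers with few reads, 11 were below the filter on low counts.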

Other observations

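The ratio of COX1 to CYTB, chosen after the shares had been seen, was steady within each group. Per length, COX1 stood at 11.12, 10.8 and 10.9 times CYTB in control 1, 2 and 3 and at 40.7, 45.0 and 39.7 times in heat 1, 2 and 3. A ratio within a library does not depend on scaling. The level of each of these genes differed by more than 2 times between control 1 and control 3, while their ratio stayed between 10.8 and 11.12 among the controls.

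ATP6 and COX3 lie side by side with no tRNA between them. Per length, ATP6 stood at 0.616, 0.534 and 0.481 times COX3 in control, against 0.259, 0.246 and 0.235 in heat, so the groups did not overlap. ND4L and ND4, which share an mRNA, stood at a ratio of 0.352, 0.484 and 0.471 in control, against 0.468, 0.472 and 0.551 in heat, and ND1 and ND2 at 0.723, 0.622 and 0.581 against 0.517, 0.522 and 0.630. In both of these pairs the groups overlapped. ATP8 and ATP6 stood at 0.414, 0.271 and 0.246 against 0.250, 0.232 and 0.301, and ND5 and ND6 at 17.6, 15.3 and 14.3 against 16.6, 15.9 and 20.9. These pairs were chosen after the levels had been seen and were not tested.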
